A study of Drosophila melanogaster with 9 samples.

Results

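The proteasome subunit genes of *Drosophila melanogaster* were examined in RNA-seq of Dl > GFP+ midgut cells. The members are the genes whose FlyBase symbol begins with Prosalpha or Prosbeta, or with Rpt or Rpn and a digit, and they number 48 of the 17481 genes in the deposited table. Of these, 32 are canonical subunits, with 14 in the core (7 alpha and 7 beta) and 18 in the cap (10 in the base and 8 in the lid). The other 16 are paralogues, 11 of core subunits and 5 of cap subunits, whose symbols carry an R or T after the digits. Canonical subunit mRNA was called higher in *Notch-RNAi* than in control cells for 26 of the 31 subunits that could be tested. Of all tested genes, 24.4% were called higher there. In *gro-RNAi* against control cells, 8 of 31 were called higher, beside 6.26% of all tested genes. These counts fell to 4 and 0 once the libraries were brought to the same median, beside 8.34% and 1.84% of all tested genes. The median FPKM of all tested genes was also higher in both RNAi groups. The paralogues were listed at 1.36 FPKM or less in every library, and *Prosbeta5R2* was listed above 0 in the *Notch-RNAi* libraries alone.

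The proteasome degrades proteins that carry chains of ubiquitin. Its core (20S) is a barrel of stacked rings, in which the outer alpha rings gate the entrance and the inner beta rings hold the protease sites, formed by *Prosbeta1*, *Prosbeta2* and *Prosbeta5*. The cap (19S) sits on the end of the barrel. In its base, the *Rpt* ATPases unfold the substrate and *Rpn* subunits receive ubiquitin, while in the lid *Rpn11* removes the ubiquitin chain. The canonical subunits are parts of the same complex, and in flies the transcription factor *cnc* is known to raise their mRNAs together. Several paralogues are known in *Drosophila* as genes of the male germ line, where they replace their canonical counterparts.

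The 9 libraries came from the intestine of adults of 5 to 7 days, 3 each from *gro-RNAi*, *Notch-RNAi* and control animals, whose genotypes are labelled groucho RNAi, notch RNAi and wild type. Per the study's methods, Dl-Gal4 with UAS-GFP drives the hairpin and GFP in intestinal stem cells (ISCs) under Gal80ts, a temperature-sensitive brake on Gal4, and the control flies expressed GFP alone. Crosses were kept cool, and adult progeny were moved to a warmer temperature for several days before dissection. The methods give the age at this move, and how it relates to the labelled age is not stated. Live GFP+ cells were sorted from pools of guts, 1 pool for each replicate, and their RNA was amplified. This is stated for *gro-RNAi* and control, while how the *Notch-RNAi* pools were made is not described, and if replicates share a source the p-values measure the spread between libraries alone. Estimated depth ran from 7720000 to 14000000 reads in *gro-RNAi* libraries, 16200000 to 18900000 in *Notch-RNAi* libraries and 11200000 to 12600000 in control libraries.

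The targeted genes had the direction their labels give, although the drop in *gro* was not called (adjusted p = 0.0940 with limma). *gro* had 3.69, 13.8 and 9.53 FPKM in *gro-RNAi* libraries, against 19.9, 27.8 and 15.3 in control libraries. *N* had 13.9, 16.1 and 9.78 FPKM in *Notch-RNAi* libraries, against 40.9, 36.9 and 28.5 in control libraries (limma, adjusted p = 0.00242). The label of the sort is ISC. *Dl*, the ISC marker (listed as Delta), was at 25.6 to 69.7 FPKM in *gro-RNAi*, 38.8 to 54.7 in *Notch-RNAi* and 3.93 to 7.09 in control libraries. Of 5 progenitor genes tested, *Dl* alone was called higher than control in either RNAi group. *klu* was called lower in *Notch-RNAi* (log2 fold change -2.39, limma adjusted p = 0.00233), and *Sox21a*, *Sox100B* and *zfh2* were not called. Markers of enteroendocrine (EE) cells were present in every group, with a summed level of 1942 to 3358 FPKM over 8 genes in *gro-RNAi*, 3018 to 3332 in *Notch-RNAi* and 1275 to 2587 in control libraries. Of those 8, 1 was called higher in *gro-RNAi* (*pros*). In *Notch-RNAi*, 3 were called higher (*pros*, *CCHa1* and *AstC*) and 3 lower (*Tk*, *NPF* and *Dh31*). Enterocyte markers summed to 292 to 1056, 140 to 610 and 182 to 359 FPKM in *gro-RNAi*, *Notch-RNAi* and control libraries, with *gammaTry* listed at 0 and 0 of 15 called, while visceral muscle markers summed to 13.5 to 25.9, 16.5 to 19.3 and 14.8 to 35.2 FPKM in the same 3 groups and hemocyte markers to 0.869 FPKM or less in any library. In such bulk samples, fewer cells of a type and less RNA per cell cannot be told apart, and the part of the cell makeup in the values below was not tested.

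The canonical subunits were higher in *Notch-RNAi* than in control cells across the core and the cap. FPKM, the reads of a gene scaled to its transcript length and to the library, were compared on the scale log2(FPKM + 0.1) with limma over 11493 genes, and genes with a Benjamini-Hochberg adjusted p under 0.05 were called. In *Notch-RNAi* against control, 26 of 31 canonical subunits rose and 0 fell, beside 24.4% of all tested genes called higher and 4.29% called lower. The calls covered 11 of 13 core subunits and 15 of 18 cap subunits, and the 5 not called were *Prosalpha2*, *Prosbeta2*, *Rpt2*, *Rpt6* and *Rpn13*. The median log2 fold change of the 31 was 0.86, beside 0.46 over all genes tested, and all 31 lay above 0. In 29 of 31 every *Notch-RNAi* library exceeded every control library, which held for 39.0% of all genes. The count of calls was 15 without *Notch-RNAi* replicate 1 19 without *Notch-RNAi* replicate 2 or 3, and 20 to 27 without any other of the 9 libraries.

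In *gro-RNAi* against control, 8 of 31 canonical subunits rose and 0 fell, beside 6.26% of all genes called higher and 1.23% called lower. The 8 were *Prosalpha5*, *Prosalpha6*, *Prosbeta1* and *Prosbeta7* in the core and *Rpn2*, *Rpn5*, *Rpn6* and *Rpt5* in the cap, and each of them was also called in *Notch-RNAi*. The median log2 fold change of the 31 was 0.55, beside 0.27 over all genes, and 30 lay above 0. In 18 of 31 every *gro-RNAi* library exceeded every control library, which held for 21.5% of all genes. The count of calls was 3 without *gro-RNAi* replicate 2 or replicate 3, and 4 without *Notch-RNAi* replicate 1 or 2 or without control replicate 1 or 2. In fits that left out 1 of the 9 libraries, *Prosbeta7*, *Prosalpha5* and *Rpn5* were called in 9, *Rpn2* in 7, *Prosalpha6* and *Prosbeta1* in 2, and *Rpn6* and *Rpt5* in 1. Both comparisons use the same 3 control libraries, so neither adds independent evidence to the other, and 28 of 31 subunits had the larger fold change in *Notch-RNAi*.

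**Figure D1:**
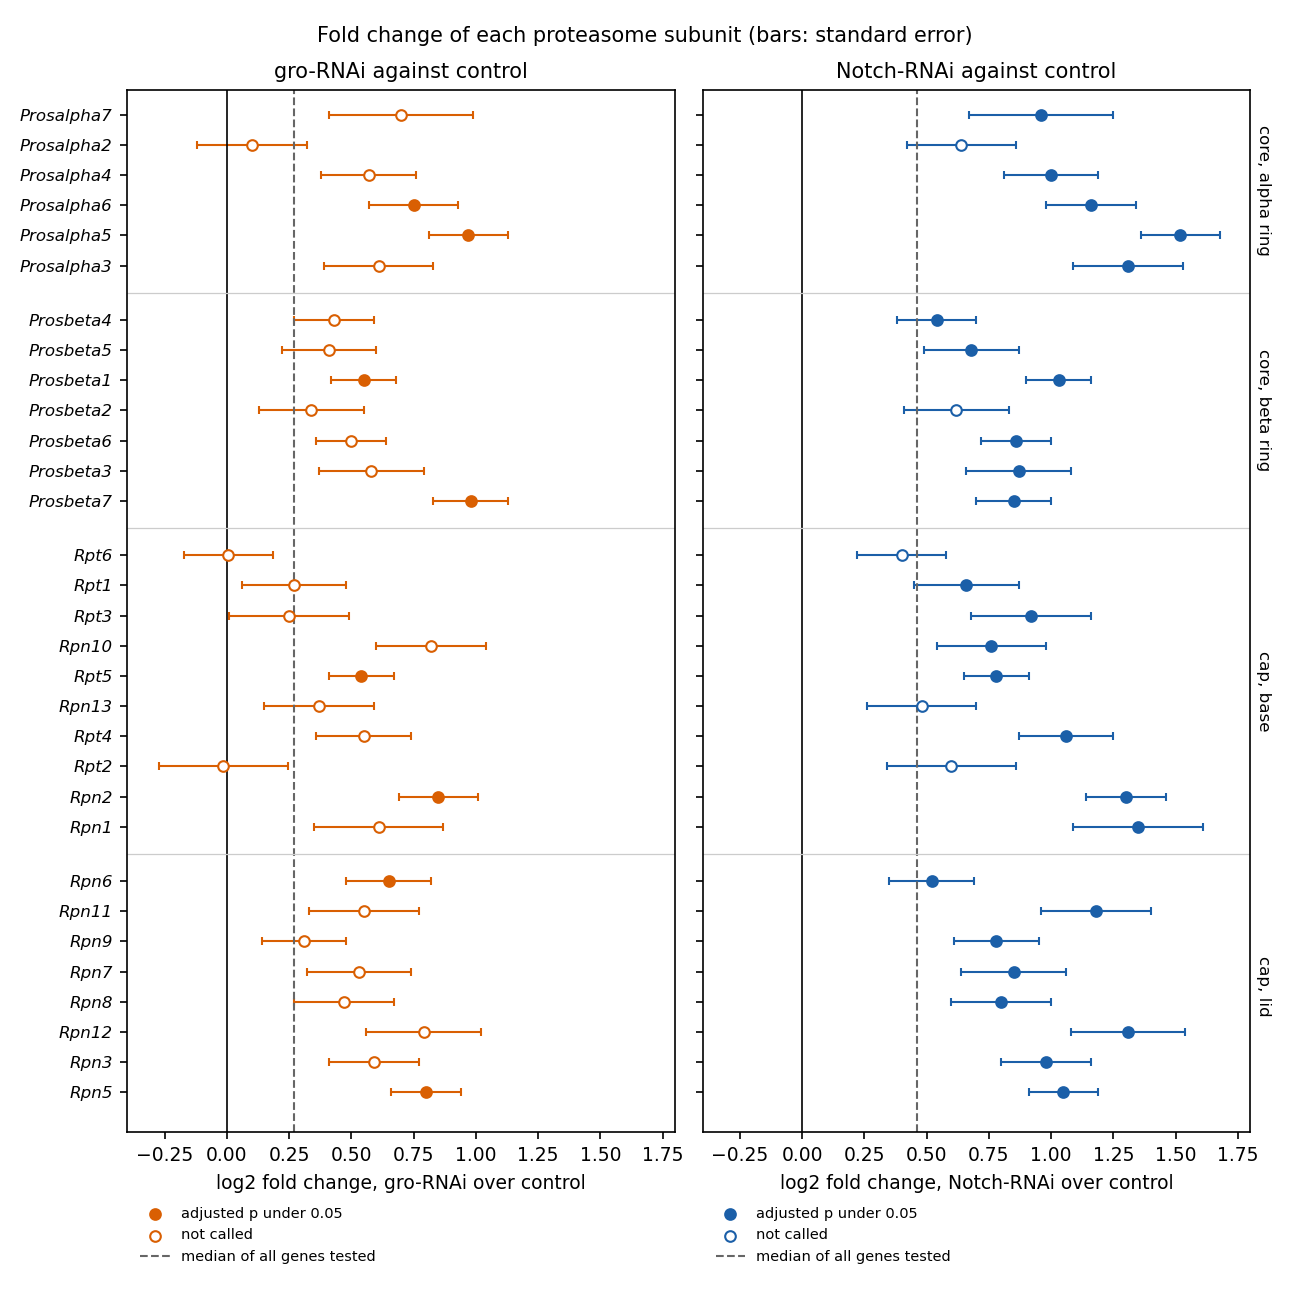
Log2 fold change of 31 canonical proteasome subunits in *gro-RNAi* over control (left) and *Notch-RNAi* over control (right), with bars for the standard error of the limma fit and filled points for an adjusted p under 0.05. The dashed lines mark the median of all genes tested, 0.27 on the left and 0.46 on the right, and most subunits lie to the right of them.

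The typical gene was also higher in both RNAi groups, and much of the difference in the subunits went with it. The median log2(FPKM + 0.1) of the tested genes was 2.49 to 2.83 in *gro-RNAi*, 2.68 to 2.84 in *Notch-RNAi* and 2.13 to 2.39 in control libraries. The noncoding RNA *lncRNA:CR40469* was listed at 76382 to 231355 FPKM in *gro-RNAi*, 28948 to 50329 in *Notch-RNAi* and 203353 to 298519 in control libraries, and its part in the medians was not tested. With each library centred on the same median, 4 of 31 subunits were called higher in *Notch-RNAi* against control, *Prosalpha3*, *Prosalpha5*, *Rpn1* and *Rpn2*, and 0 lower. As a share called higher, this is near the 8.34% of all genes called higher, while 11.3% of all genes were called lower. Before adjustment, 12 of 31 were higher at a limma p under 0.05 and 0 lower. Of all genes, 15.3% were higher and 19.3% lower at that threshold. The median log2 fold change of the subunits after centring was 0.35 in *Notch-RNAi*, beside -0.04 for all genes, and 29 of 31 lay above 0. Centring also widened the standard error of most subunits, as in *Prosbeta1* (0.13 to 0.19) and *Prosbeta7* (0.15 to 0.20). It did not do so for *Rpn1* (0.26 to 0.22) or *Rpn2* (0.16 in both). In *gro-RNAi* against control, centring left 0 of 31 called in either direction by limma, beside 1.84% of all genes called higher and 2.69% called lower. At an unadjusted p under 0.05, 4 of 31 were higher and 0 lower, beside 7.86% of all genes higher and 12.6% lower. The median there was 0.19, beside -0.10 for all genes, with 24 of 31 above 0.

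Control replicate 1 was the lowest of the 3 control libraries for 28 of 31 canonical subunits, although it was the lowest for 29.5% of all genes tested. Without it and with centring, the median log2 fold change of the subunits was 0.12 in *Notch-RNAi* (23 of 31 above 0, 2 called higher) and -0.0018 in *gro-RNAi* (15 of 31 above 0). The number of centred calls in *Notch-RNAi* was also 2 without control replicate 2 or *Notch-RNAi* replicate 2, and 1 without *Notch-RNAi* replicate 1. As deposited, the medians without it were 0.68 in *Notch-RNAi* (20 called higher) and 0.42 in *gro-RNAi* (4 called higher).

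In control cells the subunits spanned levels from 12.2 to 277 FPKM, and the core stood above the cap. Each beta and alpha subunit of the core enters the barrel in equal number, yet the mean control FPKM ran from 277 for *Prosbeta4* to 97.4 for *Prosalpha3*. Cap subunits ran from 114 for *Rpt6* to 12.2 for *Rpn1*. The 11 highest of the 31 were all core subunits, with *Prosbeta4*, *Prosbeta5* and *Prosbeta1* at the top. Their control ranges of 247 to 317, 239 to 286 and 218 to 258 FPKM overlapped, as did those of nearly all neighbours in the order. The neighbours that did not overlap were *Rpt5* and *Rpn13*, *Rpn5* and *Rpn2*, and *Rpn2* and *Rpn1* at the bottom. By mean control FPKM, 17 of the 31 were among the 1000 highest genes and 27 among the 2000 highest.

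The order of the subunits was much the same in every library, with Spearman rho from 0.85 to 0.98 between libraries over 31 subunits (a description, since libraries share the transcript lengths behind FPKM). Longer transcripts had lower levels, with rho = -0.77 between the longest annotated transcript and the mean control FPKM over 31 subunits, -0.24 over the 13 core subunits and -0.48 over the 18 cap subunits. Transcript length did not order the fold changes in the same way, with rho = -0.069 in *Notch-RNAi* and -0.0097 in *gro-RNAi* against control. Summed over subunits, core mRNA exceeded cap mRNA by 1.89 ± 0.17 in *gro-RNAi*, 1.87 ± 0.21 in *Notch-RNAi* and 1.78 ± 0.093 in control libraries (ratio of summed FPKM, SD, n = 3 libraries each), and the ranges of the 3 groups overlapped.

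**Figure D2:**
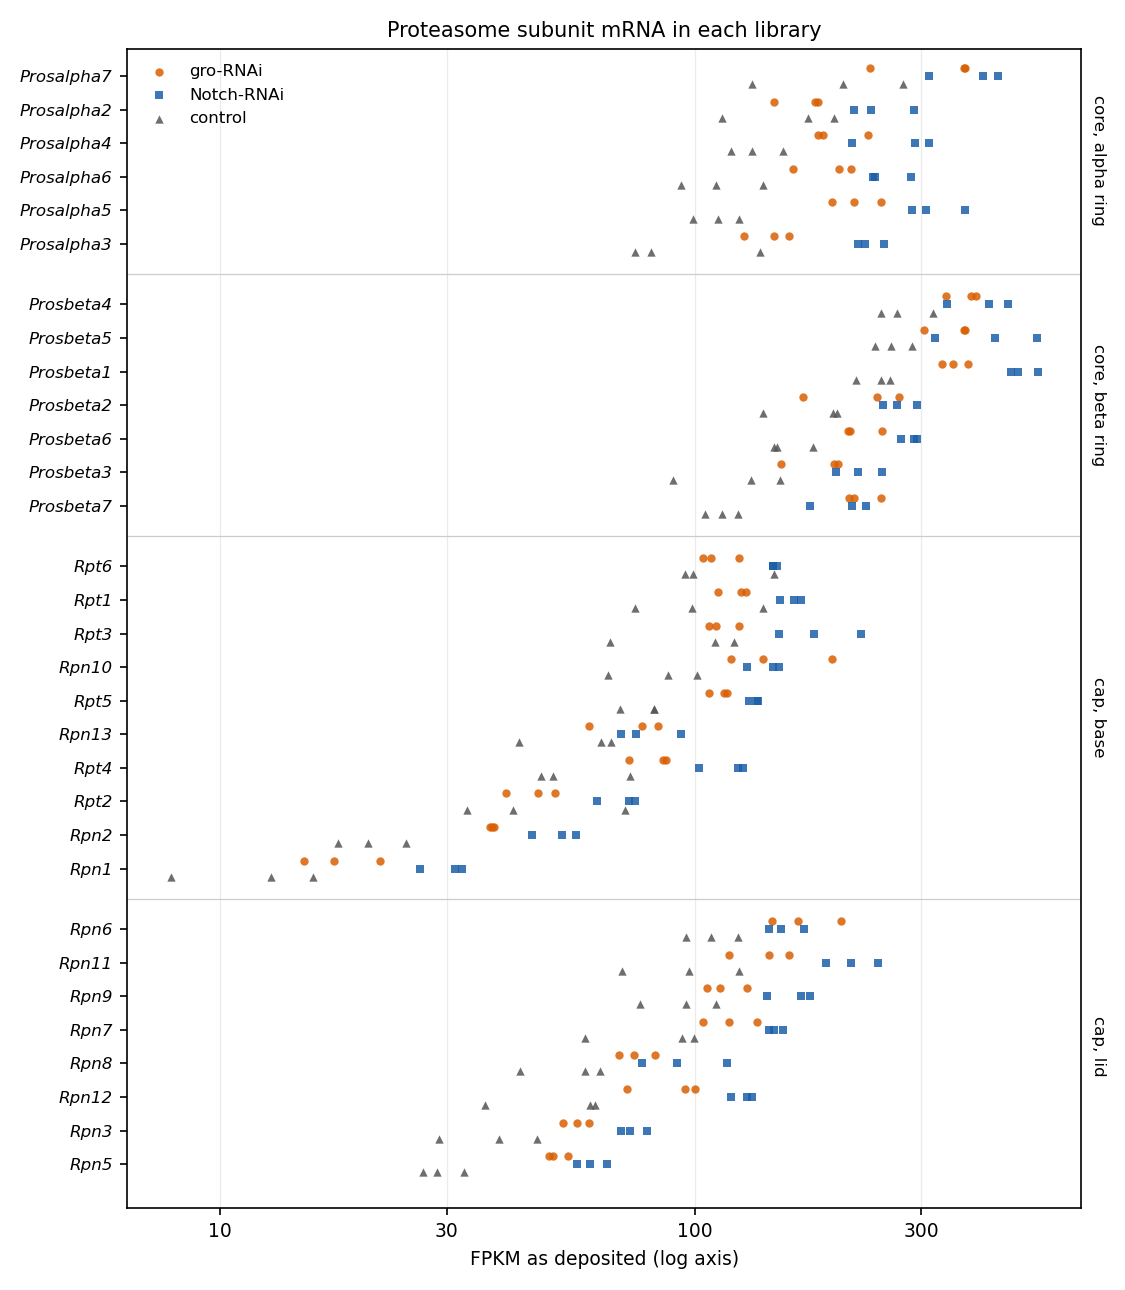
FPKM of 31 canonical subunits in each of the 9 libraries on a log axis, with 1 symbol for each library of *gro-RNAi* (circles), *Notch-RNAi* (squares) and control (triangles), grouped by ring or subcomplex and ordered by mean control FPKM. Levels ran from 7.87 FPKM for *Rpn1* in a control library to 527 for *Prosbeta1* in a *Notch-RNAi* library.

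In the beta ring, *Prosbeta7* rose in both RNAi groups, and of the protease subunits *Prosbeta1* did so. *Prosbeta7*, the beta subunit with the lowest control level (FBgn0250746, chromosome 3R, 5357012 to 5358364, release 6), had 211, 247 and 216 FPKM in *gro-RNAi*, 214, 175 and 229 in *Notch-RNAi* and 105, 114 and 123 in control libraries. Each RNAi library was above each control library, and it had the largest log2 fold change of the 31 in *gro-RNAi*, 0.98 (SE 0.15, limma adjusted p = 0.00711), beside 0.85 in *Notch-RNAi* (SE 0.15, adjusted p = 0.00437). The call in *gro-RNAi* was kept under 8 of 10 alternative settings and without any 1 library, and was lost with centring, where the log2 fold change was 0.62 (adjusted p = 0.119). *Prosbeta1*, which cuts after acidic residues, had 331, 349 and 376 FPKM in *gro-RNAi*, 480, 462 and 527 in *Notch-RNAi* and 218, 258 and 246 in control libraries. The 3 groups did not overlap, and its log2 fold change against control was 0.55 in *gro-RNAi* (SE 0.13, adjusted p = 0.0391) and 1.03 in *Notch-RNAi* (SE 0.13, adjusted p = 0.00115).

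The other protease subunits differed less from control. *Prosbeta5*, the chymotrypsin-like site and the main target of proteasome inhibitors, had 368, 304 and 370 FPKM in *gro-RNAi*, 428, 321 and 525 in *Notch-RNAi* and 239, 286 and 259 in control libraries. It was called in *Notch-RNAi* (log2 fold change 0.68, SE 0.19, adjusted p = 0.0288), and in *gro-RNAi*, where its libraries also lay above the control range, it was 0.41 (SE 0.19, adjusted p = 0.225). *Prosbeta2*, the trypsin-like site, had 269, 169 and 242 FPKM in *gro-RNAi*, 293, 249 and 267 in *Notch-RNAi* and 139, 199 and 195 in control libraries. It was not called in *Notch-RNAi* (0.62, SE 0.21, adjusted p = 0.0558), and *gro-RNAi* and control libraries overlapped (0.34, adjusted p = 0.359). *Prosbeta4*, the beta subunit with the highest control level, had 391, 338 and 382 FPKM in *gro-RNAi*, 417, 340 and 457 in *Notch-RNAi* and 247, 267 and 317 in control libraries. Its rise in *Notch-RNAi* was among the smallest of the 31 (0.54, SE 0.16, adjusted p = 0.0334), and it was 0.042 after centring. *Prosbeta3* and *Prosbeta6* were called in *Notch-RNAi* at 0.87 and 0.86, and were 0.58 and 0.50 in *gro-RNAi*, not called.

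In the alpha ring, *Prosalpha5* stood apart. It had 247, 194 and 216 FPKM in *gro-RNAi*, 287, 306 and 371 in *Notch-RNAi* and 99.3, 112 and 124 in control libraries (FBgn0016697, chromosome 2R, 17412767 to 17413769). The groups did not overlap, and its log2 fold change of 1.52 in *Notch-RNAi* was the largest of the 31 subunits (SE 0.16, limma adjusted p = 6.06e-04), beside 0.97 in *gro-RNAi* (SE 0.16, adjusted p = 0.0105). After centring it was 1.02 in *Notch-RNAi* (adjusted p = 0.00708) and 0.60 in *gro-RNAi* (adjusted p = 0.109). The *Notch-RNAi* call was kept under 10 of 10 alternative settings and in 9 of 9 fits that left out a library. *Prosalpha3*, the alpha subunit with the lowest control level, had 158, 127 and 147 FPKM in *gro-RNAi*, 250, 221 and 228 in *Notch-RNAi* and 74.8, 80.9 and 137 in control libraries. Control replicate 3 overlapped the *gro-RNAi* range, and *Prosalpha3* was called in *Notch-RNAi* (1.31, SE 0.22, adjusted p = 0.00383) and not in *gro-RNAi* (0.61, SE 0.22, adjusted p = 0.131).

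Of the remaining alpha subunits, *Prosalpha7* and *Prosalpha2* overlapped between *gro-RNAi* and control. *Prosalpha7*, the alpha subunit with the highest control level, had 234, 371 and 369 FPKM in *gro-RNAi*, 405, 311 and 435 in *Notch-RNAi* and 132, 205 and 274 in control libraries. Its *Notch-RNAi* libraries were above the control range (0.96, SE 0.29, adjusted p = 0.0353), whereas it was not called in *gro-RNAi* (0.70, SE 0.29, adjusted p = 0.169). *Prosalpha2* had 179, 147 and 182 FPKM in *gro-RNAi*, 216, 289 and 235 in *Notch-RNAi* and 114, 173 and 196 in control libraries. It was called in neither comparison (0.10 in *gro-RNAi*, adjusted p = 0.824, and 0.64 in *Notch-RNAi*, adjusted p = 0.0552), and in *gro-RNAi* it was -0.27 after centring. *Prosalpha6* was called in *gro-RNAi* (0.75) and *Notch-RNAi* (1.16), and *Prosalpha4* was called in *Notch-RNAi* (1.00) and not in *gro-RNAi* (0.57).

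The base of the cap held both the largest and the smallest differences among cap subunits. *Rpn1* and *Rpn2* are its large scaffold proteins, and *Rpn1* also docks ubiquitin and its carriers. *Rpn1* (FBgn0028695, chromosome 3L, 19915051 to 19918160) had 21.7, 15.0 and 17.4 FPKM in *gro-RNAi*, 31.3, 32.3 and 26.4 in *Notch-RNAi* and 12.8, 7.87 and 15.7 in control libraries. It was the lowest of the 31 subunits in control, and it rose in *Notch-RNAi* (1.35, SE 0.26, limma adjusted p = 0.00691), while *gro-RNAi* and control overlapped (0.61, SE 0.26, adjusted p = 0.193). *Rpn2* (FBgn0028692, chromosome 3R, 29153524 to 29157255) had 37.1, 37.4 and 37.8 FPKM in *gro-RNAi*, 56.1, 52.4 and 45.3 in *Notch-RNAi* and 20.5, 17.7 and 24.6 in control libraries. The 3 groups did not overlap, and *Rpn2* was called in *gro-RNAi* (0.85, SE 0.16, adjusted p = 0.0185) and in *Notch-RNAi* (1.30, SE 0.16, adjusted p = 0.00109). After centring, both genes were still called in *Notch-RNAi*, *Rpn1* at 0.84 (adjusted p = 0.0274) and *Rpn2* at 0.79 (adjusted p = 0.0109).

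The ubiquitin receptors *Rpn10* and *Rpn13* differed from each other. *Rpn10* had 119, 194 and 139 FPKM in *gro-RNAi*, 150, 129 and 146 in *Notch-RNAi* and 65.5, 101 and 87.9 in control libraries. Both RNAi groups lay above the control range, with a call in *Notch-RNAi* (0.76, SE 0.22, limma adjusted p = 0.0313) and none in *gro-RNAi* (0.82, SE 0.22, adjusted p = 0.0558). *Rpn13* had 59.9, 83.6 and 77.5 FPKM in *gro-RNAi*, 93.7, 69.9 and 75.2 in *Notch-RNAi* and 42.6, 66.5 and 63.4 in control libraries. It was called in neither (0.37 in *gro-RNAi*, adjusted p = 0.332, and 0.48 in *Notch-RNAi*, adjusted p = 0.125), and after centring it was 0.0047 in *gro-RNAi* and -0.019 in *Notch-RNAi*.

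The 6 *Rpt* subunits form the ATPase ring that pulls substrates into the core, and they had smaller fold changes than the 31 as a whole in *gro-RNAi*, with a median of 0.26. Of the 6, 1 was called in *gro-RNAi* (*Rpt5*, 0.54) and 4 in *Notch-RNAi* (*Rpt1*, *Rpt3*, *Rpt4* and *Rpt5*, 0.66 to 1.06), beside 6.26% and 24.4% of all genes called higher. After centring, 0 of the 6 were called in either, with medians of -0.11 in *gro-RNAi* and 0.22 in *Notch-RNAi*. *Rpt6*, the cap subunit with the highest control level, had 104, 124 and 108 FPKM in *gro-RNAi*, 149, 146 and 146 in *Notch-RNAi* and 95.1, 99.2 and 147 in control libraries. *Rpt2* had 46.7, 40.0 and 50.7 FPKM in *gro-RNAi*, 74.9, 72.5 and 62.1 in *Notch-RNAi* and 33.1, 41.4 and 71.1 in control libraries. In both genes control replicate 3 stood above the other control libraries and above every *gro-RNAi* library. *Rpt6* was 0.0063 in *gro-RNAi* (SE 0.18, adjusted p = 0.997) and 0.40 in *Notch-RNAi* (SE 0.18, adjusted p = 0.128), and *Rpt2* was -0.014 in *gro-RNAi* (SE 0.26, adjusted p = 0.991) and 0.60 in *Notch-RNAi* (SE 0.26, adjusted p = 0.114).

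*Rpt1* and *Rpt3* followed the same division between the RNAi groups. *Rpt3* had 107, 111 and 124 FPKM in *gro-RNAi*, 178, 224 and 150 in *Notch-RNAi* and 66.2, 121 and 110 in control libraries. *Rpt1* had 112, 125 and 128 FPKM in *gro-RNAi*, 167, 162 and 151 in *Notch-RNAi* and 74.7, 98.8 and 139 in control libraries. In each of them the *Notch-RNAi* libraries lay above the other 6, and *gro-RNAi* and control overlapped. *Rpt3* was called in *Notch-RNAi* (0.92, SE 0.24, limma adjusted p = 0.0208) and was 0.25 in *gro-RNAi* (adjusted p = 0.562), and *Rpt1* was called in *Notch-RNAi* (0.66, SE 0.21, adjusted p = 0.0418) and was 0.27 in *gro-RNAi* (adjusted p = 0.475).

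In the lid, 8 of 8 subunits were called in *Notch-RNAi* (median log2 fold change 0.92) and 2 of 8 in *gro-RNAi* (median 0.57). Of all genes, 24.4% and 6.26% were called higher in the same comparisons. After centring, 0 of 8 were called in either, and the medians were 0.41 and 0.21. *Rpn5*, a scaffold subunit and the lowest of the lid in control, had 49.4, 50.2 and 54.1 FPKM in *gro-RNAi*, 56.5, 60.1 and 65.3 in *Notch-RNAi* and 32.6, 28.6 and 26.8 in control libraries. The groups did not overlap, and it rose in *gro-RNAi* (0.80, SE 0.14, limma adjusted p = 0.0124) and in *Notch-RNAi* (1.05, SE 0.14, adjusted p = 0.00136). *Rpn12*, which joins the lid last during assembly in yeast, had 72.0, 100 and 95.2 FPKM in *gro-RNAi*, 132, 129 and 119 in *Notch-RNAi* and 36.1, 61.7 and 60.0 in control libraries. The 3 groups again did not overlap, and *Rpn12* was called in *Notch-RNAi* (1.31, SE 0.23, adjusted p = 0.00397) and not in *gro-RNAi* (0.79, SE 0.23, adjusted p = 0.0681). *Rpn6*, which in yeast links the lid to the alpha ring and had the highest control level of the lid, had 145, 203 and 165 FPKM in *gro-RNAi*, 143, 152 and 170 in *Notch-RNAi* and 95.6, 108 and 123 in control libraries. It was called at 0.65 in *gro-RNAi* (SE 0.17, adjusted p = 0.0496) and 0.52 in *Notch-RNAi* (SE 0.17, adjusted p = 0.0460), and after centring it was 0.013 in *Notch-RNAi*. The deubiquitinase *Rpn11* was called in *Notch-RNAi* at 1.18, and its partner *Rpn8* at 0.80, while *Rpn3*, *Rpn7* and *Rpn9* were called at 0.98, 0.85 and 0.78. In *gro-RNAi* these 5 were not called, at 0.31 to 0.59.

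Reads from overlapping genes may enter some of these values. Exons of 12 of the 31 canonical subunits overlap a gene on the other strand in the annotation (*Prosalpha2*, *Prosbeta1*, *Prosbeta2*, *Prosbeta3*, *Prosbeta4*, *Prosbeta5*, *Rpt2*, *Rpt4*, *Rpt5*, *Rpt6*, *Rpn7* and *Rpn9*), and whether the counting used strand is not given in the sources used here. Of the 19 without such an overlap, 18 were called higher in *Notch-RNAi* (median 0.98) and 6 in *gro-RNAi* (median 0.61), beside 24.4% and 6.26% of all genes. After centring, 4 of the 19 were called in *Notch-RNAi* (median 0.48) and 0 in *gro-RNAi* (median 0.25).

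Summed over each ring or subcomplex, mRNA of the subunits was highest in *Notch-RNAi*. The alpha ring summed to 1248 ± 47.2 FPKM in *gro-RNAi*, 1710 ± 99.1 in *Notch-RNAi* and 823 ± 195 in control libraries (SD, n = 3 libraries each, *Prosalpha1* not included). The beta ring summed to 1927 ± 98.2, 2301 ± 236 and 1352 ± 149 FPKM in *gro-RNAi*, *Notch-RNAi* and control libraries. For the alpha ring, the beta ring and the lid, every library of each RNAi group exceeded every control library. The base summed to 868 ± 66.1 FPKM in *gro-RNAi*, 1114 ± 64.6 in *Notch-RNAi* and 676 ± 144 in control libraries, and there *gro-RNAi* and control overlapped. The lid summed to 818 ± 61.4 FPKM in *gro-RNAi*, 1036 ± 33.1 in *Notch-RNAi* and 559 ± 108 in control libraries.

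After multiplying the FPKM of each library by 0.821 to 1.35 to give the same median, the sums came closer. The alpha ring then stood at 1192 ± 181 FPKM in *gro-RNAi*, 1476 ± 173 in *Notch-RNAi* and 1018 ± 274 in control libraries, and the base at 831 ± 149 FPKM in *gro-RNAi*, 957 ± 19.4 in *Notch-RNAi* and 836 ± 212 in control libraries. The *Notch-RNAi* libraries remained above the control range for the alpha ring and the lid, and overlapped it for the beta ring and the base. The *gro-RNAi* libraries overlapped control in each of the 4. Subunit by subunit, 12 of 31 did not overlap between *Notch-RNAi* and control on these values, all higher, beside 19% of all genes. Between *gro-RNAi* and control the number was 4 of 31, beside 8.95% of all genes.

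**Figure D3:**
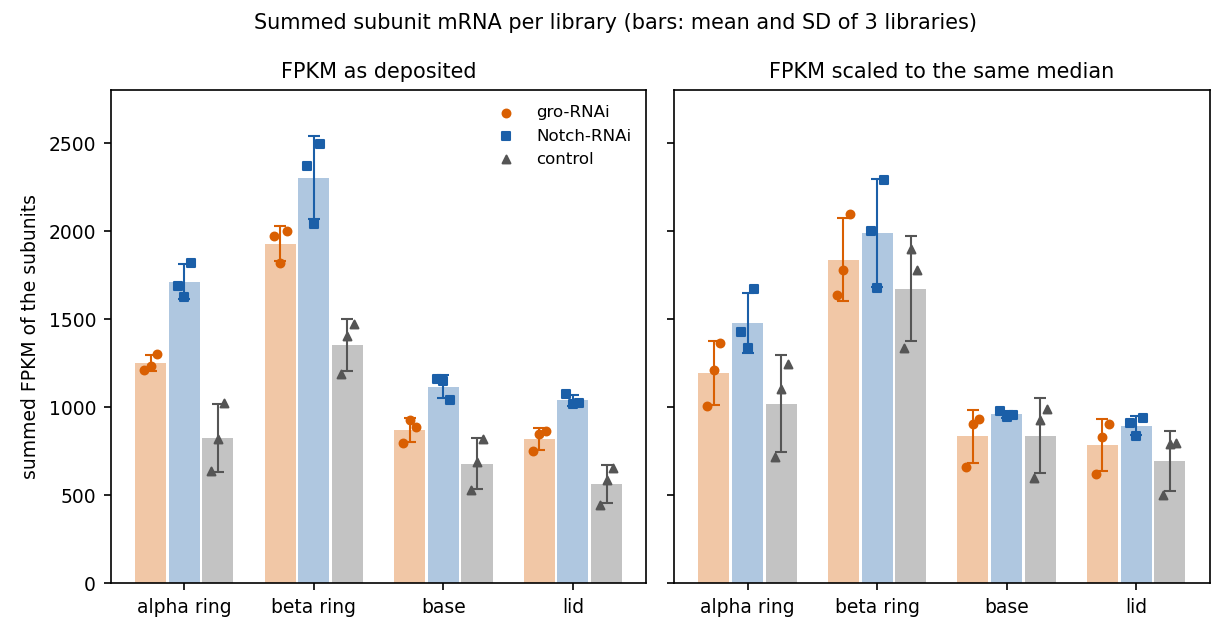
Summed FPKM of the alpha ring, beta ring, base and lid as deposited (left) and after each library was scaled to the same median (right), with points for the libraries and bars for the mean and SD of 3 libraries. As deposited, the alpha ring averaged 1248 FPKM in *gro-RNAi*, 1710 in *Notch-RNAi* and 823 in control, and after scaling 1192, 1476 and 1018.

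Set against each other, the RNAi groups gave no called difference in a canonical subunit, although most were lower in *gro-RNAi*. In *gro-RNAi* against *Notch-RNAi*, limma called 0 of 31 in either direction, beside 2.60% of all genes called higher and 4.86% lower. At an unadjusted p under 0.05, 14 of 31 were lower and 0 higher, beside 18.3% of all genes lower and 7.88% higher, and after centring 2 of 31 were lower, beside 13.4%. The log2 fold changes ran from -0.74 to 0.13 with a median of -0.39, beside -0.18 over all genes, and 28 of 31 were below 0. Every *gro-RNAi* library was below every *Notch-RNAi* library in 20 of 31, which held for 22.3% of all genes. The nearest to a call was *Prosbeta1* (-0.48, SE 0.13, adjusted p = 0.0598). The 3 subunits above 0 were *Prosbeta7*, *Rpn6* and *Rpn10*. With the libraries at the same median the median was -0.26, beside -0.04 over all genes, and *gro-RNAi* lay below *Notch-RNAi* without overlap in 10 of 31, beside 17.6% of all genes. Without control replicate 1, *Prosbeta1* and *Rpt3* were called lower, and without control replicate 3, *Prosalpha3* was, since the fit shares 1 estimate of the spread.

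Genes that act with the proteasome were read from the same fit. Among proteins that assemble or regulate the proteasome (9 genes matched of 10 listed), 2 were called in *gro-RNAi* and 4 in *Notch-RNAi*, all higher than control. Their median log2 fold changes were 0.65 and 0.72 (0.29 and 0.21 after centring). Of all genes, 6.26% and 24.4% were called higher in these comparisons. *Pomp*, the chaperone that completes the core, had 220, 290 and 267 FPKM in *gro-RNAi*, 160, 166 and 195 in *Notch-RNAi* and 158, 136 and 171 in control libraries. It was called in *gro-RNAi* (log2 fold change 0.74, limma adjusted p = 0.0283) and was 0.17 in *Notch-RNAi* (adjusted p = 0.463). *Uch-L5*, a deubiquitinase that binds *Rpn13*, had 59.7, 56.2 and 55.3 FPKM in *gro-RNAi*, 35.2, 37.0 and 49.8 in *Notch-RNAi* and 30.8, 34.3 and 22.6 in control libraries, and was called in *gro-RNAi* (0.98, adjusted p = 0.0226). In both genes each *gro-RNAi* library exceeded the other 6, and both calls were lost after centring (adjusted p = 0.348 and 0.176).

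In *Notch-RNAi*, *PI31*, a proteasome-binding regulator, *Usp14*, a deubiquitinase of the cap, *CG12321* and *CG9588* were called. *PI31* had 36.3, 25.9 and 20.7 FPKM in *gro-RNAi*, 46.6, 47.5 and 48.5 in *Notch-RNAi* and 28.9, 28.8 and 28.8 in control libraries. It was higher in *Notch-RNAi* than in control (0.72, limma adjusted p = 0.0258) and lower in *gro-RNAi* than in *Notch-RNAi* (-0.82, adjusted p = 0.0397). With a library left out, these calls were kept in 3 of 9 fits against control and in 2 of 9 between the RNAi groups. *CG12321* had 33.0, 37.1 and 43.1 FPKM in *gro-RNAi*, 65.1, 52.0 and 55.8 in *Notch-RNAi* and 18.8, 26.8 and 25.0 in control libraries. The 3 groups did not overlap (1.30 in *Notch-RNAi*, adjusted p = 0.00195). *Usp14* was 1.02 (adjusted p = 0.0331) and *CG9588* was 0.68 (adjusted p = 0.0148). After centring, none of the 4 was called in *Notch-RNAi* against control (adjusted p = 0.0506 to 0.573). *Sem1*, a lid subunit in yeast and human whose symbol falls outside the selection, had 532, 248 and 490 FPKM in *gro-RNAi*, 595, 488 and 442 in *Notch-RNAi* and 272, 290 and 304 in control libraries. It was not called (0.48 in *gro-RNAi*, adjusted p = 0.312, and 0.81 in *Notch-RNAi*, adjusted p = 0.0520).

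Among ubiquitin genes and carriers (10 matched of 11 listed), *Npl4* was called in *gro-RNAi*, and *Ubi-p63E* and *Plap* in *Notch-RNAi*, all higher than control. Of all genes, 6.26% were called higher in *gro-RNAi* and 24.4% in *Notch-RNAi* (8.34% in *Notch-RNAi* after centring). The median of the list was 0.11 in *gro-RNAi* and 0.37 in *Notch-RNAi*, and -0.25 and -0.13 after centring. *Ubi-p63E*, which encodes polyubiquitin, had 71.3, 71.9 and 61.5 FPKM in *gro-RNAi*, 130, 124 and 106 in *Notch-RNAi* and 49.4, 57.8 and 41.4 in control libraries. *Plap*, a ubiquitin-binding protein, had 11.2, 10.4 and 9.40 FPKM in *gro-RNAi*, 22.6, 23.3 and 20.5 in *Notch-RNAi* and 8.85, 7.97 and 12.1 in control libraries. Every *Notch-RNAi* library exceeded the other 6 in both genes, and both stayed called in *Notch-RNAi* after centring (*Ubi-p63E* 0.78, limma adjusted p = 0.0180, and *Plap* 0.71, adjusted p = 0.0246). Both were lower in *gro-RNAi* than in *Notch-RNAi* (-0.81, adjusted p = 0.0242, and -1.09, adjusted p = 0.0159), and after centring *Plap* was still called there (-0.95, adjusted p = 0.0171) and *Ubi-p63E* was not (-0.67, adjusted p = 0.0555). With a library left out, each of these calls between the RNAi groups was kept in 5 of 9 fits. *Npl4*, a partner of the segregase that extracts ubiquitylated proteins, had 26.5, 36.6 and 31.1 FPKM in *gro-RNAi*, 24.4, 18.3 and 24.0 in *Notch-RNAi* and 19.6, 18.1 and 14.4 in control libraries (0.85 in *gro-RNAi*, adjusted p = 0.0376, and not called after centring, adjusted p = 0.295).

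None of 5 genes that control proteasome transcription was called in any comparison with limma (*cnc*, its partner *maf-S*, its inhibitor *Keap1*, *Pngl* and *rngo*), with adjusted p from 0.0804 to 0.955. Their median was 0.29 in *gro-RNAi* and 0.48 in *Notch-RNAi*, and -0.076 and -0.024 after centring. *cnc* had 146, 114 and 113 FPKM in *gro-RNAi*, 83.9, 110 and 112 in *Notch-RNAi* and 190, 134 and 111 in control libraries. Its log2 fold change was -0.49 in *Notch-RNAi* (adjusted p = 0.129), and after centring it was called lower there (-0.99, adjusted p = 0.0108).

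For comparison, other large complexes were counted in the same fit, where 24.4% of all genes were called higher in *Notch-RNAi* and 6.26% in *gro-RNAi*. The shares called lower were 4.29% and 1.23%. The COP9 signalosome, which is built like the lid, had 8 of 8 tested genes called higher in *Notch-RNAi* (median log2 fold change 0.71) and 1 of 8 in *gro-RNAi* (0.49). The CCT chaperonin had 1 of 7 called higher in *Notch-RNAi* (0.25) and 0 of 7 in *gro-RNAi* (0.24). Among cytosolic ribosomal proteins, 2 of 85 were called higher and 3 lower in *Notch-RNAi* (-0.16), and 2 higher and 1 lower in *gro-RNAi* (-0.27). After centring, the medians in *Notch-RNAi* were 0.21 for COP9, -0.25 for CCT and -0.66 for ribosomal proteins, and in *gro-RNAi* 0.12, -0.12 and -0.63. The counts of calls also moved, to 1 of 8 COP9 genes, 0 of 7 CCT genes and 1 ribosomal protein higher and 11 lower in *Notch-RNAi*, and to 0 of 8, 0 of 7, and 1 higher and 0 lower in *gro-RNAi*. With centring, 8.34% of all genes were called higher and 11.3% lower in *Notch-RNAi*, and 1.84% higher and 2.69% lower in *gro-RNAi*. Differences between these complexes and the proteasome were not tested.

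The paralogues were near or at 0 in most libraries. Of 16, 5 were listed at 0 in every library (*Prosalpha1R*, *Prosalpha4T1*, *Prosbeta4R1*, *Rpn12R* and *Rpt4R*), 7 reached 0.1 FPKM in at least 1 library, and 5 had a mean of at least 0.1 FPKM and passed the filter. Their summed level was 0.579 to 2.25 FPKM in *gro-RNAi*, 2.82 to 4.20 in *Notch-RNAi* and 1.02 to 1.44 in control libraries, against 2786 to 6373 FPKM for the canonical subunits. The names with T mark genes known from the testis. Of these, *Prosalpha3T*, *Prosalpha4T2* and *Prosalpha6T* reached at most 0.085 FPKM, about 1 read in a library, and *Prosbeta4R2* had about 1 read in 1 control library.

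*Prosbeta5R1* and *Prosbeta5R2*, both relatives of the chymotrypsin-like subunit, were listed mainly in *Notch-RNAi* libraries. *Prosbeta5R1* (FBgn0034842, chromosome 2R, 23308654 to 23309816) was listed at 0 in each *gro-RNAi* library, at 1.13, 0.837 and 0.555 FPKM in *Notch-RNAi* and at 0, 0.333 and 0 in control libraries. These values rest on about 22, 15 and 12 reads in *Notch-RNAi* and about 0, 5 and 0 in control. *Prosbeta5R2* (FBgn0051742, chromosome 2L, 17990418 to 17991951) was listed at 0.365, 0.663 and 0.171 FPKM in *Notch-RNAi*, about 10, 16 and 5 reads, and at 0 in the other 6 libraries. Over the 6 libraries of *gro-RNAi* and control, *Prosbeta5R1* averaged 0.0555 FPKM and *Prosbeta5R2* 0, so both passed the filter of 0.1 FPKM through the *Notch-RNAi* libraries, where they were high. Exact zeros in such a table can also be failed estimates. For both reasons the values are given as a description, with no fold and no test.

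The *Notch-RNAi* libraries were also the deepest, and the part of depth in these low values was not tested. Canonical *Prosbeta5* was at 321 to 525 FPKM in the same *Notch-RNAi* libraries, far above both paralogues.

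Of the other 3 paralogues that passed the filter, none was called in any comparison. *Rpt3R* had 0.891, 1.02 and 0.312 FPKM in *gro-RNAi*, 1.19, 0.816 and 1.32 in *Notch-RNAi* and 0.280, 0.620 and 0.474 in control libraries (1.14 in *Notch-RNAi*, limma adjusted p = 0.0943). *Prosbeta2R2* had 0.786, 0.443 and 0.0846 FPKM in *gro-RNAi*, 0.958, 1.36 and 0.539 in *Notch-RNAi* and 0.456, 0.269 and 0.368 in control libraries (1.12 in *Notch-RNAi*, adjusted p = 0.183). In both the *Notch-RNAi* libraries lay above the control range, without passing the test. *Rpn13R* had 0.382, 0 and 0.107 FPKM in *gro-RNAi*, 0.0605, 0.395 and 0.0567 in *Notch-RNAi* and 0.192, 0.170 and 0.186 in control libraries, and overlapped throughout. *Rpt6R* and *Prosbeta2R1* reached 0.121 and 0.123 FPKM and did not pass the filter.

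**Figure D4:**
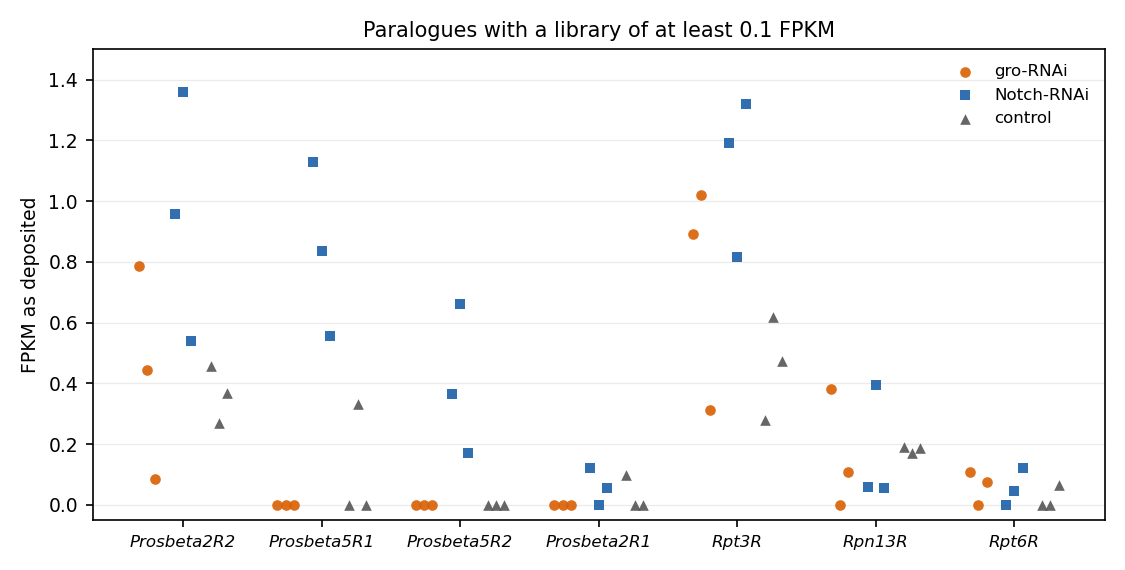
FPKM of the 7 paralogues that reached 0.1 FPKM in a library, with 1 symbol for each library of *gro-RNAi* (circles), *Notch-RNAi* (squares) and control (triangles). *Prosbeta5R1* stood at 0.555 to 1.13 FPKM in *Notch-RNAi* and at 0 in *gro-RNAi*, and *Prosbeta5R2* at 0.171 to 0.663 in *Notch-RNAi* and at 0 in the other 6 libraries.

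Most listed genes of the male germ line were near or at 0, and 4 were not. The 17 genes summed to 28.2 to 50.8 FPKM in *gro-RNAi*, 17 to 21.2 in *Notch-RNAi* and 22.7 to 65.9 in control libraries. Of these, *twe*, *bol*, *mia* and *tomb* were expressed in every library and were set apart by their levels, with *twe* at 17.6 to 57.5 FPKM in control. The other 13 summed to 0.266 to 0.544 FPKM in *gro-RNAi*, 0.510 to 0.975 in *Notch-RNAi* and 0.536 to 1.40 in control libraries. *Mst84Da*, *Mst84Db*, *Mst84Dd*, *Mst98Ca* and *Mst98Cb*, which mark developing sperm, were listed at 0 throughout. The sums of the 13 genes overlapped between *Notch-RNAi* and control libraries. Among them *betaTub85D* lay above control without overlap, with 0.0978, 0.0709 and 0.122 FPKM in *Notch-RNAi* and 0.0517, 0 and 0 in control libraries. It did not pass the filter and was not tested, and 39.0% of all genes tested lay above control in this way. *ocn* went the other way without overlap, with 0.129, 0.141 and 0 FPKM in *Notch-RNAi* and 0.205, 0.182 and 0.596 in control libraries. It was not called (limma, adjusted p = 0.233). *twe* was called lower in *Notch-RNAi* than in control (-2.03, limma adjusted p = 0.00685), and *bol*, *mia* and *tomb* were not called in that comparison. Between the RNAi groups, *twe* was called higher in *gro-RNAi* (2.16, adjusted p = 0.0171) and *bol* lower (-1.47, adjusted p = 0.0397).

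*Prosalpha1*, an alpha subunit that every core contains, was listed at 0 in all 9 libraries (FBgn0263121, chromosome 2R, 7827303 to 7828678). Its tandem copy *Prosalpha1R* (FBgn0050382), 1735 bases away on the same strand, was also listed at 0. Since other core subunits were at 97.4 FPKM or more on average in control cells, the 0 of *Prosalpha1* is not read as a measured level. It was left out of every sum and every count of tested subunits above. Whether the 0 of *Prosalpha1R* is a measured level was not tested.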

How the data were processed

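RNA-seq was available for sorted Dl > GFP+ cells in 9 libraries, 3 each of *gro-RNAi*, *Notch-RNAi* and control. The authors deposited FPKM for 17481 genes. The submitters' processing notes name STAR 2.5.2b and the BDGP6 build, while the tool that made FPKM, its annotation and its use of strand are not given in the sources used here. Symbols (17176 genes) and positions came from Ensembl release 115 on release 6 of the genome, whose gene models may differ from the authors'. No pair of libraries held identical values.

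FPKM carry no read totals, so depth was estimated from the steps between values under 0.3 FPKM on transcripts of at least 2500 nt. Between 64.8% and 84.3% of those values lay within 0.1 of a whole read, so read numbers are approximate and no count test was run. They cover counting error only, since RNA was amplified.

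The 11493 genes averaging 0.1 FPKM or more over the 9 libraries were compared on log2(FPKM + 0.1) with limma 3.58.1 in R 4.3.3 (lmFit, eBayes with trend) in 1 fit over 9 libraries, with p-values adjusted over all genes tested. Sums and figures used Python 3.11.15, pandas 2.3.3, numpy 2.4.6 and matplotlib 3.10.9. The fit was tested on simulated data. As alternatives, the pseudocount was set to 1 or 0.01, the filter to 1 FPKM or to none, and further fits used centred or quantile-normalized libraries, only the 6 libraries compared, one prior variance, a replicate block and each library left out. Scaling FPKM before the pseudocount, and centring with each library left out or with the block, were added after seeing the data.

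Values in every library are given for the highest and lowest canonical subunit of each subcomplex in control, the 5 largest and 5 smallest fold changes in each comparison with control, the protease subunits and paralogues reaching 0.1 FPKM. List genes were named when called. *cnc* and *Prosalpha1* were named, and *twe*, *bol*, *mia* and *tomb* set apart, after their values were seen. The members and lists were chosen with earlier results of these data known. Deviations of same-numbered libraries from their group means correlated at -0.046 to 0.072, beside -0.089 to 0.115 for different numbers. No pairing by number was seen, although this cannot tell whether same-numbered libraries were prepared together. *esg*, *wupA* and *TER94* could not be matched. Sequences and promoter motifs were not analysed here.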

Additional observations from a re-analysis of the deposited data

How the results depend on the processing

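Calls of canonical subunits depended on scaling. In *gro-RNAi* against control, 8 were called higher, beside 0 with the libraries centred or with FPKM scaled to the same median, 2 with quantile normalization, 3 with only the 6 libraries compared, 4 with one prior variance, 5 with the replicate block, and 3 to 8 with each library left out. In *Notch-RNAi* against control, 26 were called, beside 4 with the libraries centred or scaled, 11 with quantile normalization, 25 with the replicate block and 15 to 27 with each library left out. The 4 centred calls became 1 to 6 with each library left out. In *gro-RNAi* against *Notch-RNAi*, 0 were called lower, beside 1 with only the 6 libraries compared, 0 with the replicate block and 0 to 2 with each library left out. All genes called with centring split differently as well, with 212 higher and 309 lower in *gro-RNAi* against control in place of 720 and 141, and 958 and 1294 in *Notch-RNAi* in place of 2806 and 493.

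Signs of uncalled log2 fold changes turned in *gro-RNAi* against control for *Rpt6* (-0.36 centred, -0.36 scaled, -0.17 quantile, -0.11 to 0.21 with a library left out), *Prosalpha2* (-0.27 centred, -0.27 scaled, -0.043 quantile, -0.13 to 0.26), *Rpt3* (-0.12 centred, -0.12 scaled, -0.019 to 0.41), *Rpt1* (-0.10 centred, -0.11 scaled), *Prosbeta2* (-0.024 centred, -0.03 scaled), *Rpt2* (-0.25 to 0.30 with a library left out), *Rpn13R* (-0.97 to 0.16) and *Prosbeta2R2* (0.048 at a pseudocount of 1, -0.53 to 0.60 with a library left out). In *Notch-RNAi* against control they turned for *Rpt6* (-0.11 centred, -0.11 scaled) and *Rpn13* (-0.019 centred, -0.028 scaled). The cause was not tested. With medians in place of sums, core over cap was 2.28 in *gro-RNAi*, 2.23 in *Notch-RNAi* and 2.18 in control. With 3 libraries a group, small differences cannot be resolved, and some well above their standard error were not called. An example is *Rpn10* in *gro-RNAi* against control (0.82, SE 0.22, limma adjusted p = 0.0558). Values of the paralogues rest on a few reads.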
